A study of Homo sapiens with 12 samples.

Results

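The genes described here code for 10 enzymes that remove superoxide or peroxides: the glutathione peroxidase family members GPX1, GPX3, GPX4 and GPX8, catalase (CAT), the superoxide dismutases SOD1, SOD2 and SOD3, and the peroxiredoxins PRDX1 and PRDX6. They were chosen by gene symbol, with earlier results of these data known, and each symbol had 1 line in the deposited count table. They are 10 of the 40591 lines with a symbol, and all 10 were among the 15179 genes whose counts were high enough to test. The libraries were made from poly(A) RNA of ARPE-19, an established human cell line derived from the retinal pigment epithelium (RPE). There are 12 of them in 4 groups of 3. The WT group has no open reading frame (ORF) named in its labels. The GFP group expressed green fluorescent protein, the GSTA4 group expressed glutathione S-transferase alpha 4, and the OSK group expressed the reprogramming factors taken here to be KLF4, SOX2 and POU5F1 (OCT4). The ORF groups are stable lines taken 4 days into ORF expression. The labels give no promoter, and leave unsaid whether a line was 1 clone and whether a group's 3 libraries had separate cultures behind them. An effect of an ORF and a difference between lines therefore cannot be told apart, and the p-values measure only the spread between these libraries. In such bulk RNA, fewer cells of a type and less RNA per cell cannot be told apart either.

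Superoxide dismutases turn superoxide into hydrogen peroxide, and catalase, glutathione peroxidases and peroxiredoxins then reduce hydrogen peroxide to water. Glutathione peroxidases draw their electrons mostly from glutathione and most peroxiredoxins draw theirs from thioredoxin, both of which are kept reduced with NADPH. In the eye, the RPE lies between the photoreceptors and a rich blood supply, takes up lipid-rich outer segments, and is a classic setting for the study of oxidative damage.

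The chemistry of the glutathione peroxidases rests on 1 residue. The coding sequence around its codon is shown because it separates the 4 members described below: selenocysteine, coded by TGA, in GPX1, GPX3 and GPX4, and cysteine in GPX8. Each line gives 45 coding bases of the GRCh38 genome on the strand of the gene, 5′ to 3′, with the codon in capitals. The TGA codons are those annotated as selenocysteine in GENCODE release 29. The GPX8 codon was found by aligning its translated coding sequence with that of GPX1.
GPX1: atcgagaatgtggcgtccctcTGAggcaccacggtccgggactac
GPX3: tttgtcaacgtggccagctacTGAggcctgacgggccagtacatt
GPX4: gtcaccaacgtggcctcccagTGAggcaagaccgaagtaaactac
GPX8: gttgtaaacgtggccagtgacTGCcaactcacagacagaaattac
The capitals lie in coding exons at chr3:49358132-49358134 on the minus strand for GPX1, chr5:151025469-151025471 on the plus strand for GPX3, chr19:1105403-1105405 on the plus strand for GPX4 and chr5:55161024-55161026 on the plus strand for GPX8. They are codon 49 of 203 in GPX1, 73 of 226 in GPX3, 73 of 197 in GPX4 and 79 of 209 in GPX8.

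Levels are given as CPM, in which counts are divided by the TMM-scaled library size. The smallest library had 12630675 reads (GFP replicate 1) and the largest 17045454 (WT replicate 3), and 3 reads correspond to 0.177 to 0.228 CPM. The ORF genes followed the labels: GSTA4 averaged 415.3 CPM in the GSTA4 group and 5.46 to 20.17 CPM elsewhere, and POU5F1, SOX2 and KLF4 averaged 778.1, 627.3 and 926.6 CPM in the OSK group. GFP replicate 1 stood apart, with reads in 27349 named genes where all others had 19488 to 22073. WT replicate 1 differed most from its own group: the chi-square per gene was 15 and 17.4 against WT replicates 2 and 3, 2.54 between those, and 2.62 to 7.12 between libraries of the other groups. Without WT replicate 1 the counts of the 10 genes past the threshold were the same in each contrast. The share of reads from mitochondrially encoded genes was highest in GSTA4, at 7.73% ± 0.16, and was 6.85% ± 0.0427 in OSK, 6.32% ± 0.248 in GFP and 6.02% ± 0.0366 in WT (SD, n = 3). Of 14 RPE markers, 9 averaged at least 1 CPM in WT and GFP and 8 did in GSTA4 and OSK, among them TYR, TYRP1, LRAT and BEST1, while RPE65, DCT, TTR, RGR and CRX averaged under 1 CPM in every group. Their summed level was 687 to 917 CPM in WT, 1100 to 1320 CPM in GFP, 576 to 689 CPM in GSTA4 and 667 to 703 CPM in OSK. The 9 pluripotent cell markers summed to at most 1.67 CPM and the 9 blood and immune cell markers to at most 2.51 CPM in any library.

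The first comparison asked which of the 10 genes differed between a line carrying GSTA4 or OSK and the line carrying GFP. In GSTA4 against GFP, 6 of the 10 passed an adjusted p of 0.05 by the quasi-likelihood test of edgeR: GPX1, CAT, SOD1 and PRDX6 were higher, and GPX3 and PRDX1 were lower. Of all genes tested, 29.2% passed in that contrast, 14.7% higher and 14.6% lower. In OSK against GFP, 9 of the 10 passed, with GPX1, GPX8, CAT, SOD1, SOD2, PRDX1 and PRDX6 higher and GPX3 and GPX4 lower. The share of all genes was 45.9%, with 23.1% higher and 22.8% lower. The call on SOD2 in that contrast sat at the threshold and was lost under 10 of 19 alternative settings.

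The same 10 genes were compared between the control groups and between the ORF lines. In GFP against WT, 3 of the 10 passed, GPX8 higher and GPX3 and SOD2 lower, against 22.2% of all genes, 11% higher and 11.2% lower. In OSK against GSTA4, 7 passed, with GPX3, GPX8, SOD2, PRDX1 and PRDX6 higher and GPX1 and GPX4 lower, against 47.8% of all genes, 24.1% higher and 23.8% lower. In GSTA4 against WT, 7 passed, 4 of them higher, against 38.6% of all genes, 19.7% higher and 19% lower. In OSK against WT, 8 passed, 6 of them higher, against 45.4% of all genes, 22.7% in each direction. The ORF contrasts against GFP share the GFP libraries and those against WT share the WT libraries.

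The median log2 difference of the 10 genes was 0.051 in GSTA4 against GFP and 0.36 in OSK against GFP, where all genes tested had medians of 0.0082 and -0.019. The median size of the difference regardless of sign was 0.24 and 0.37, against 0.22 and 0.31 over all genes. An F test across the 4 groups passed for 9 of the 10, all but SOD3, and for 66.9% of all genes. By that test PRDX6 ranked 62 of 15179 genes, GPX3 ranked 96 and GPX1 ranked 580.

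**Figure D1:**
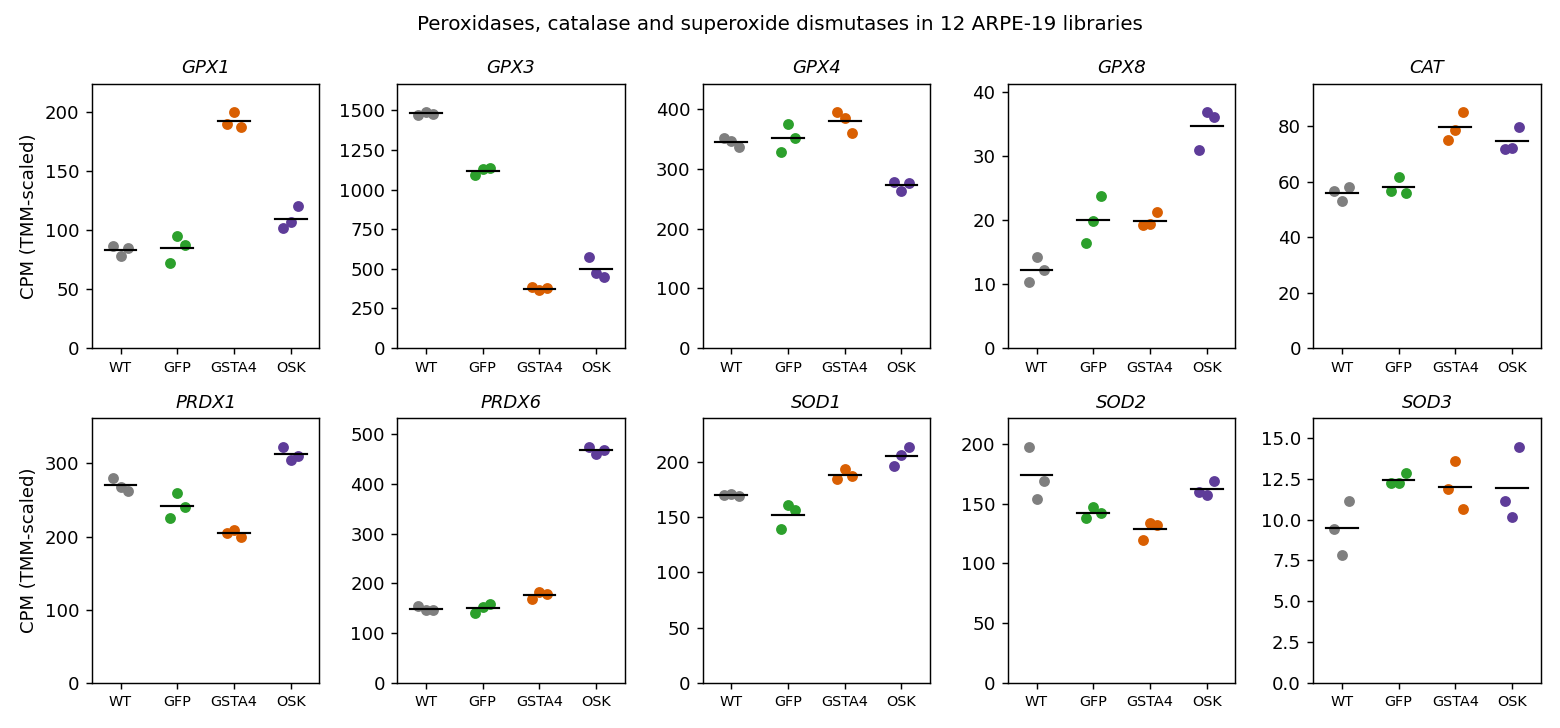
CPM of each of the 10 genes in its own panel on a linear axis, in 4 groups of 3 libraries. Each point is 1 library and each bar is the group mean. GPX3 runs from 365.5 CPM in a GSTA4 library to 1489 CPM in a WT library, and the 3 OSK libraries of PRDX6 lie at 459.6 to 475 CPM, above all 9 others.

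GPX3, the secreted plasma glutathione peroxidase, fell more than any other of the 10 genes in both ORF lines. It lies at chr5:151020438-151028993 on the plus strand. Its level was 1473, 1489 and 1479 CPM in WT, and 1092, 1130 and 1133 CPM in GFP. It was 382.2, 365.5 and 376.5 CPM in GSTA4, and 572.3, 472.9 and 448.6 CPM in OSK. No group overlapped another, and the order was GSTA4, OSK, GFP, WT from low to high. GSTA4 lay 2.98-fold below GFP, a log2 difference of -1.58 (SE 0.0729, edgeR adjusted p = 1.39e-12). OSK lay 2.25-fold below GFP, at -1.17 (SE 0.0721, edgeR adjusted p = 3.88e-11). GFP itself was lower than WT by a log2 difference of -0.40 (SE 0.0709, edgeR adjusted p = 0.000401). Every neighbouring step in the order of GPX3 passed the test, with OSK above GSTA4 by 0.41 (edgeR adjusted p = 7.32e-05). The OSK libraries spread the most, with an SD of 65.5 CPM against 8.33 to 23 CPM in the other groups.

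Markers of other cell types moved with GPX3 in part. Of 9 fibroblast and mesenchymal markers, FAP, COL1A1 and PDGFRB exceeded 1 CPM and LUM had no read in any library. The 9 markers summed to 777 to 794 CPM in WT and 715 to 780 in GFP, and to less in the ORF lines, 531 to 559 in GSTA4 and 340 to 399 in OSK. COL1A1, a fibrillar collagen chain, had the same group order as GPX3, at 91.5 to 143 CPM in WT, 80.2 to 84.4 in GFP, 16.8 to 25.7 in OSK and 3.24 to 6.67 in GSTA4. It was singled out after its values were seen. FAP had that order too by its means, at 10.17 CPM in WT, 6.28 in GFP, 2.38 in OSK and 1.95 in GSTA4. PDGFRB, which made up most of the sum, did not, at 650, 659, 342 and 539 CPM in the same groups. Of 5 endothelial markers, KDR carried nearly the whole sum, which was 70.9 to 94.4 CPM in WT and 23.6 to 26.6 in OSK. KDR did not have the order of GPX3: its mean was lowest in OSK, at 23.3 CPM, against 37.1 for the GSTA4 line. The controls had higher KDR means, 79.1 CPM for WT and 61.9 for GFP. VWF went the other way, with a mean of 0.25 CPM for WT and 2.04 for OSK, and passed as higher in OSK against WT. PECAM1, CDH5 and TEK averaged under 1 CPM in every group. Whether these markers came from other cells or from ARPE-19 cells themselves was not tested, nor was their part in the GPX3 result.

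GPX1, the main cytosolic and mitochondrial glutathione peroxidase, was highest in the GSTA4 line. It lies at chr3:49357171-49358600 on the minus strand. GPX1 stood at 86.05, 78.32 and 84.5 CPM in WT and at 72.37, 95.21 and 87.46 CPM in GFP. It stood at 189.5, 199.8 and 187.2 CPM in GSTA4 and at 101.4, 106.5 and 120.6 CPM in OSK. The WT and GFP libraries overlapped, while OSK lay above both and GSTA4 above all others. GSTA4 was 2.26-fold above GFP, a log2 difference of 1.18 (SE 0.0829, edgeR adjusted p = 7.75e-10). OSK was above GFP by 0.36 (SE 0.0836, edgeR adjusted p = 0.00127) and below GSTA4 by a log2 difference of -0.81 (edgeR adjusted p = 4.81e-08). GFP and WT did not differ by the test, with a 95% interval of the log2 difference from -0.14 to 0.21. The GSTA4 libraries, highest in GPX1, also had the highest share of mitochondrially encoded reads, 7.55% to 7.82% against 6.05% to 6.54% in GFP, and its part in the result was not tested.

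GPX1P1, a processed pseudogene of GPX1, was counted apart from it. Their sequences were not compared, and how the authors' counting treated reads that fit both was not given in the sources used here. GPX1P1 held 2113 reads in all, 10.2% of those of GPX1. It averaged 19.5 CPM in GSTA4, 11.5 in OSK, 9.24 in WT and 7.7 in GFP. GPX1P1 was above GFP in GSTA4 by 1.34 (SE 0.168, edgeR adjusted p = 3.55e-06) and in OSK by 0.57 (SE 0.174, edgeR adjusted p = 0.0111). The level of GPX1 is uncertain to the extent that reads were shared between the genes.

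GPX4, which reduces peroxides of membrane lipids, was lower in OSK than in the other groups. It lies at chr19:1103926-1106791 on the plus strand. GPX4 stood at 352.3, 347.5 and 336.2 CPM in WT, at 328.9, 375 and 352.2 in GFP, at 395.4, 384.9 and 360.9 in GSTA4 and at 278.6, 262.4 and 276.6 in OSK. All OSK libraries were below all others. The log2 difference of OSK from GFP was -0.37 (SE 0.0605, edgeR adjusted p = 4.11e-05) and that from GSTA4 was -0.48 (edgeR adjusted p = 1.19e-06). GSTA4 and GFP overlapped, with a log2 difference of 0.11 and a 95% interval from -0.014 to 0.24 (edgeR adjusted p = 0.179). The difference of GSTA4 from WT, 0.14, had an edgeR adjusted p of 0.0736, which became 0.0445 without GFP replicate 1.

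GPX8, the family member with cysteine at the catalytic position and a membrane protein of the endoplasmic reticulum, was highest in OSK. It lies at chr5:55160118-55167071 on the plus strand. GPX8 stood at 10.31, 14.23 and 12.14 CPM in WT, at 16.48, 19.83 and 23.75 in GFP, at 19.23, 19.34 and 21.23 in GSTA4 and at 31.05, 36.92 and 36.11 in OSK. WT was below and OSK above every other library, and GFP and GSTA4 overlapped. OSK exceeded GFP by a log2 difference of 0.79 (SE 0.124, edgeR adjusted p = 2.4e-05), and GFP exceeded WT by 0.72 (SE 0.134, edgeR adjusted p = 0.000706). The difference of GSTA4 from GFP was -0.0096, with a 95% interval from -0.28 to 0.26 (edgeR adjusted p = 0.967).

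Catalase, the haem enzyme of the peroxisome, was higher in both ORF lines than in both controls. CAT lies at chr11:34438925-34472062 on the plus strand. Its level was 56.54, 52.95 and 57.98 CPM in WT and 56.73, 61.57 and 55.91 CPM in GFP. It was 75.07, 78.78 and 85.13 CPM in GSTA4 and 71.84, 72.01 and 79.75 CPM in OSK. The WT and GFP libraries overlapped, the GSTA4 and OSK libraries overlapped, and the control and ORF libraries did not. CAT was 1.37-fold higher in GSTA4 than in GFP, a log2 difference of 0.46 (SE 0.0719, edgeR adjusted p = 5.94e-05), and in OSK the difference was 0.36 (SE 0.072, edgeR adjusted p = 0.000353). Between OSK and GSTA4 it was -0.096, with a 95% interval from -0.24 to 0.052 (edgeR adjusted p = 0.282).

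PRDX6, a peroxiredoxin with 1 catalytic cysteine that also acts on phospholipids, gave the largest rise of the 10 genes in OSK against GFP. It lies at chr1:173477266-173488807 on the plus strand. PRDX6 stood at 153.9, 145.6 and 145.7 CPM in WT and at 140.5, 152.6 and 158.6 CPM in GFP. It stood at 168.4, 183.3 and 178.2 CPM in GSTA4 and at 475, 459.6 and 468.8 CPM in OSK. WT and GFP overlapped, GSTA4 lay above both, and OSK lay far above all. OSK was 3.11-fold above GFP, a log2 difference of 1.64 (SE 0.0598, edgeR adjusted p = 9.05e-15), and above GSTA4 by 1.41 (edgeR adjusted p = 5.31e-14). GSTA4 exceeded GFP by 0.23 (SE 0.0595, edgeR adjusted p = 0.0061). The antisense RNA PRDX6-AS1 held 908 reads, 2.18% as many as PRDX6, and averaged 9.77 CPM in OSK, 4.22 in GSTA4, 3.66 in GFP and 2.92 in WT. GENCODE release 29 has no gene of that symbol, so its overlap with PRDX6 was not measured, and whether the counting used strand was not given in the sources used here.

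PRDX1, the abundant cytosolic peroxiredoxin that thioredoxin reduces, moved in opposite directions in the ORF lines. It lies at chr1:45511036-45523047 on the minus strand, and its exons overlap those of MMACHC on the other strand over 379 bases. PRDX1 stood at 280.8, 268.3 and 262.6 CPM in WT, at 225.7, 260.3 and 240.4 in GFP, at 205, 209.1 and 199.4 in GSTA4 and at 322.9, 305.1 and 309.9 in OSK. GSTA4 lay below and OSK above every other library, and all GFP libraries lay below all WT libraries. The log2 difference from GFP was -0.24 in GSTA4 (SE 0.0601, edgeR adjusted p = 0.00412) and 0.37 in OSK (SE 0.0597, edgeR adjusted p = 3.56e-05). OSK was 1.53-fold above GSTA4 (edgeR adjusted p = 3.25e-08). GFP differed from WT by -0.16, with an edgeR adjusted p of 0.0599, 0.0271 without GFP replicate 2 and 0.0342 by DESeq2.

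SOD1, the copper and zinc enzyme of the cytosol, was higher in both ORF lines than in GFP. It lies at chr21:31659622-31668931 on the plus strand. SOD1 stood at 169.4, 170.9 and 168.8 CPM in WT, at 139.1, 160.5 and 156.7 in GFP, at 184.4, 193.5 and 186.7 in GSTA4 and at 195.8, 206.3 and 213.5 in OSK. No group overlapped another. Its log2 difference from GFP was 0.31 in GSTA4 (SE 0.0605, edgeR adjusted p = 0.000622) and 0.43 in OSK (SE 0.0604, edgeR adjusted p = 5.94e-06). Against WT, OSK was higher by 0.27 (edgeR adjusted p = 0.000802), while GSTA4 differed by 0.15 (edgeR adjusted p = 0.0566). Between neighbours in the order GFP, WT, GSTA4, OSK, none of the 3 steps passed by edgeR or DESeq2, and all 3 had an unadjusted p under 0.05. The step from WT to GSTA4 passed without GFP replicate 1, and the step from GSTA4 to OSK passed without GFP replicate 1 or OSK replicate 1 and with only the 6 libraries of those groups. Scaling by library size alone let the steps from GFP to WT (edgeR adjusted p = 0.0466) and from WT to GSTA4 (edgeR adjusted p = 0.0421) pass.

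SOD2, the manganese enzyme of the mitochondrial matrix, was highest in WT by its mean and lowest in GSTA4. It lies on chromosome 6 on the minus strand, where GENCODE release 29 holds 2 gene models of that name. Its exons overlap those of WTAP and ACAT2 on the other strand, the latter over 1141 bases. They overlap those of SOD2-OT1 on the same strand over 939 bases. Over all libraries WTAP held 12863 reads, ACAT2 7259 and SOD2-OT1 170, against 26882 for SOD2. The level of SOD2 is uncertain to the extent that reads were shared between these genes. SOD2 stood at 197.8, 154.4 and 169.3 CPM in WT, at 138.1, 147.5 and 142.3 in GFP, at 119.4, 134.3 and 132 in GSTA4 and at 159.9, 157.6 and 169.2 in OSK. The WT libraries spread over the OSK range, and the other groups did not overlap. GFP was below WT by a log2 difference of -0.29 (SE 0.0749, edgeR adjusted p = 0.00965), and OSK exceeded GSTA4 by 0.34 (SE 0.0753, edgeR adjusted p = 0.000914). Without WT replicate 1, the highest library, the difference of GFP from WT was -0.19 (edgeR adjusted p = 0.0488). OSK exceeded GFP by 0.19 (SE 0.0751, edgeR adjusted p = 0.04998), and across alternative settings that adjusted p ran from 0.00889 to 0.235. It missed the threshold without any 1 of GFP replicates 1, 2 and 3, GSTA4 replicates 2 and 3, and OSK replicates 1, 2 and 3.

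SOD3, the secreted dismutase bound to the extracellular matrix, passed in none of the 6 contrasts by edgeR or by DESeq2, though 3 of them had an unadjusted p under 0.05. It lies at chr4:24789912-24800842 on the plus strand. SOD3 stood at 9.444, 7.847 and 11.14 CPM in WT, at 12.23, 12.24 and 12.89 in GFP, at 11.87, 13.57 and 10.65 in GSTA4 and at 11.16, 10.18 and 14.47 in OSK. GFP lay above WT in every library, by a log2 difference of 0.39 with a 95% interval from 0.065 to 0.71 (edgeR adjusted p = 0.0786). Without WT replicate 3 that difference became 0.52 (edgeR adjusted p = 0.0342). SOD3 also passed without that library in GSTA4 against WT, in OSK against WT and in the F test across the 4 groups. In OSK against WT it passed without OSK replicate 2 as well. For OSK against GFP the interval ran from -0.38 to 0.25, so a change of SOD3 within those bounds was not resolved.

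**Figure D2:**
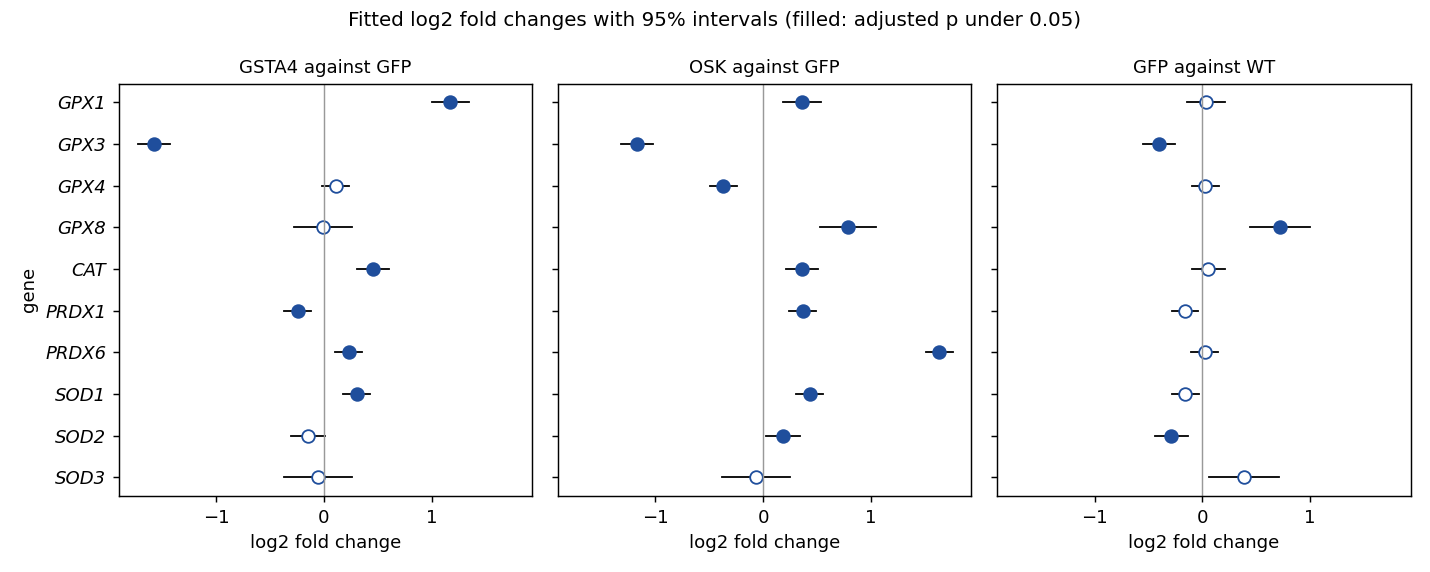
Log2 fold changes of the 10 genes in GSTA4 against GFP, OSK against GFP and GFP against WT, with 95% intervals; filled points passed an adjusted p of 0.05. GPX3 lies left of 0 in all of them, GPX1 stands out in GSTA4 at 1.18 and PRDX6 in OSK at 1.64.

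Whether the libraries of a pair of groups overlapped was counted apart from the test. In GSTA4 against GFP, 7 of the 10 genes had groups that did not overlap, against 42.3% of all genes tested, and in OSK against GFP 9 did, against 54.7%. In GFP against WT, 6 of the 10 did, against 34.6%. The counts were 8 in OSK against GSTA4 (58% of all genes), 9 in GSTA4 against WT (49%) and 8 in OSK against WT (53.5%).

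To compare levels between genes, CPM was divided by the length of the gene's exons in GENCODE release 29. SOD2 was left out because of its 2 models, which left 9 genes. By group means on this per-kilobase scale, GPX3 was the highest in WT (841 CPM per kb), GFP (635) and OSK (283, SD 37.2). In GSTA4 it came after GPX4, at 213 against 309 CPM per kb. GPX3 made up 49.8% of the sum over the 9 genes in WT and 43.6% in GFP, against 18.3% in GSTA4 and 20.8% in OSK. PRDX6 ranked 5 of the 9 in WT, at 84.7 CPM per kb, and 2 in OSK, at 267 CPM per kb (SD 4.43). In OSK replicate 3 PRDX6 lay above GPX3, at 468.8 against 448.6 CPM with exon lengths of 1.751 and 1.761 kb.

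The sum of the 9 genes per kb was 1704, 1689 and 1675 in WT, 1379, 1514 and 1475 in GFP, 1167, 1180 and 1142 in GSTA4 and 1401, 1324 and 1354 in OSK. By that sum WT was above and GSTA4 below every other library, and GFP and OSK overlapped. Without GPX3 the order was different: the sum was 867.3, 843.3 and 835.6 in WT, 759.4, 872.5 and 831.3 in GFP, 950.1, 972.7 and 928.1 in GSTA4 and 1076, 1056 and 1099 in OSK. The other 8 genes together were then higher in both ORF lines than in any control library, but not each of them. From GFP, PRDX6 went from 86 to 267 CPM per kb in OSK and GPX1 from 59.5 to 134 in GSTA4. GPX4 went from 286 to 221 in OSK and PRDX1 from 193 to 163 in GSTA4. These sums are descriptions and were not tested.

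**Figure D3:**
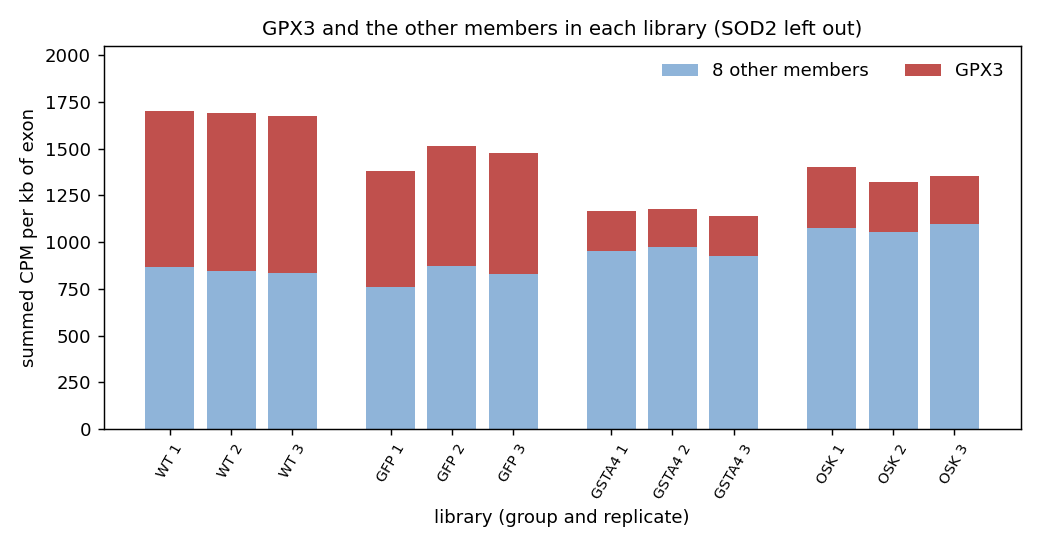
Summed level of 9 of the genes (CPM per kb of exon) in each of the 12 libraries, with GPX3 stacked on the others together. SOD2 is left out. The GPX3 segment makes up 42.4% to 50.1% of a WT or GFP bar and 17.6% to 23.2% of a GSTA4 or OSK bar.

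Among 9604 genes with a mean of at least 10 CPM, those whose log2 levels over the 12 libraries lay closest in shape to a member were listed for the 3 members ranked highest by the F test. Likeness was the root mean square difference of the centred log2 levels. For PRDX6 they were JADE2 at 0.0884, AVPI1 at 0.0947 and ZCCHC24 at 0.108. JADE2 averaged 26.15, 27.35, 28.84 and 89.7 CPM in WT, GFP, GSTA4 and OSK. For GPX3 they were CCN2 at 0.118, BMF at 0.136 and IFFO2 at 0.163. CCN2, a secreted matrix-associated protein, averaged 1883, 1233, 436.7 and 589.8 CPM in the same order. For GPX1 they were NAP1L3 at 0.145, BCAM at 0.148 and NMT2 at 0.156. These genes share the libraries with the members and were found by search, so the values are a description.

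Other genes of the pathway were taken from 8 lists of 80 genes in all, of which 72 were tested. In GSTA4 against GFP 18 passed as higher and 8 as lower, in OSK against GFP 23 and 17, and in GFP against WT 5 and 6. Of all genes tested, 29.2%, 45.9% and 22.2% passed in these contrasts in either direction. Among 7 tested relatives of the members, PRDX3 and PRDX4 were higher and PXDN, a matrix peroxidase, was lower in GSTA4. In OSK, PRDX2, PRDX4 and PRDX5 were higher and GPX7 and PXDN lower. PRDX3, the peroxiredoxin of mitochondria, averaged 158.6 CPM in GFP and 210.4 CPM in GSTA4, a log2 difference of 0.41 (SE 0.0576, edgeR adjusted p = 1.61e-05). PRDX5 averaged 138.3 CPM in GFP and 247.3 CPM in OSK, a log2 difference of 0.84 (SE 0.0672, edgeR adjusted p = 2.19e-09).

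Genes that supply electrons to these enzymes were counted by list, to be read against the same shares of all genes. Of 10 genes of glutathione synthesis and reduction, 1 passed in GSTA4 against GFP, SLC3A2, which was lower, and leaving out WT replicate 1 gave 3 calls and leaving out GFP replicate 3 gave 2. In OSK against GFP 7 were higher, GCLC, GCLM, GLRX, GLRX2, GLRX5, GSR and SLC7A11, and SLC3A2 was lower. GLRX, a glutaredoxin that uses glutathione to reduce disulfides, stood at 8.049, 5.87 and 7.057 CPM in GFP and at 46.33, 56.65 and 58.04 CPM in OSK, a log2 difference of 2.94 (SE 0.133, edgeR adjusted p = 2.54e-13). SLC7A11, the cystine carrier, rose from an average of 1.14 CPM in GFP to 10.03 CPM in OSK, by 3.12 (SE 0.259, edgeR adjusted p = 3.55e-09). SLC3A2, its partner chain, fell from 779.6 CPM in GFP to 382.7 CPM in GSTA4 and 551.5 CPM in OSK.

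Of 10 genes of the thioredoxin and sulfiredoxin system, 6 were higher and 2 lower in GSTA4 against GFP, and 4 were higher and 3 lower in OSK. SESN3, a stress-induced sestrin, averaged 26.58 CPM in GFP, 61.91 in GSTA4 and 9.66 in OSK. Its log2 difference from GFP was 1.22 in GSTA4 (SE 0.0838, edgeR adjusted p = 5.03e-10) and -1.46 in OSK (SE 0.0972, edgeR adjusted p = 1.28e-10). Of 8 genes of NADPH supply, 1 was higher and 1 lower in GSTA4, where 0 passed without GSTA4 replicate 3 and 1 without GSTA4 replicate 1 or 2 or GFP replicate 2 or 3, and 3 were higher and 1 lower in OSK. IDH1, which makes NADPH in the cytosol, averaged 59.32 CPM in GFP and 118.3 CPM in OSK (edgeR adjusted p = 1.85e-09).

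Of 8 genes that serve selenoprotein synthesis, which GPX1, GPX3 and GPX4 depend on, 0 passed in GSTA4 against GFP by edgeR or DESeq2, and 1 had an unadjusted p under 0.05. In OSK against GFP LRP8, SEPHS2 and SECISBP2 were higher and TRNAU1AP lower. The call on TRNAU1AP was lost with no filter and without GFP replicate 1 or 2 or OSK replicate 1 or 2, and the 4 calls became 2 without GFP replicate 1 or 2 or OSK replicate 1. LRP8, a receptor that takes up selenoprotein P, averaged 6.87 CPM in GFP and 19.96 CPM in OSK, a log2 difference of 1.54 (SE 0.151, edgeR adjusted p = 4.24e-08). Of 5 genes that deliver metals to the dismutases, ATOX1 was higher in GSTA4 and the copper importer SLC31A1 higher in OSK. ATOX1 lost its call without GFP replicate 1 or 2 or GSTA4 replicate 2 or 3. Of 12 peroxisome genes, 4 were higher and 1 lower in GSTA4, and 1 was higher and 3 lower in OSK. These 5 and 4 calls were 0 to 5 and 1 to 5 across the alternative settings, with 0 in GSTA4 without GFP replicate 1. Leaving out GFP replicate 2 or 3 or GSTA4 replicate 1 or 2 left 1 to 3 in GSTA4, and leaving out GFP replicate 2 or 3 or any 1 OSK library left 1 or 2 in OSK.

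Among 12 tested oxidases that produce superoxide or hydrogen peroxide, 4 were higher and 2 lower in GSTA4 against GFP, and 1 was higher and 6 lower in OSK against GFP. NOX4, an NADPH oxidase, stood at 67.05, 65.72 and 62.02 CPM in GFP and at 8.186, 9.445 and 9.138 CPM in GSTA4, 7.29-fold lower (log2 difference -2.87, SE 0.162, edgeR adjusted p = 2.77e-11). MAOA, a monoamine oxidase of mitochondria, stood at 15.26, 15.32 and 18.59 CPM in GFP, at 105.8, 99.24 and 106 CPM in GSTA4 and at 5.827, 6.386 and 6.604 CPM in OSK. The GSTA4 libraries were all above and the OSK libraries all below the GFP libraries. Its log2 difference from GFP was 2.66 in GSTA4 (SE 0.0873, edgeR adjusted p = 9.04e-15) and -1.39 in OSK (SE 0.109, edgeR adjusted p = 1.56e-09).

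**Figure D4:**
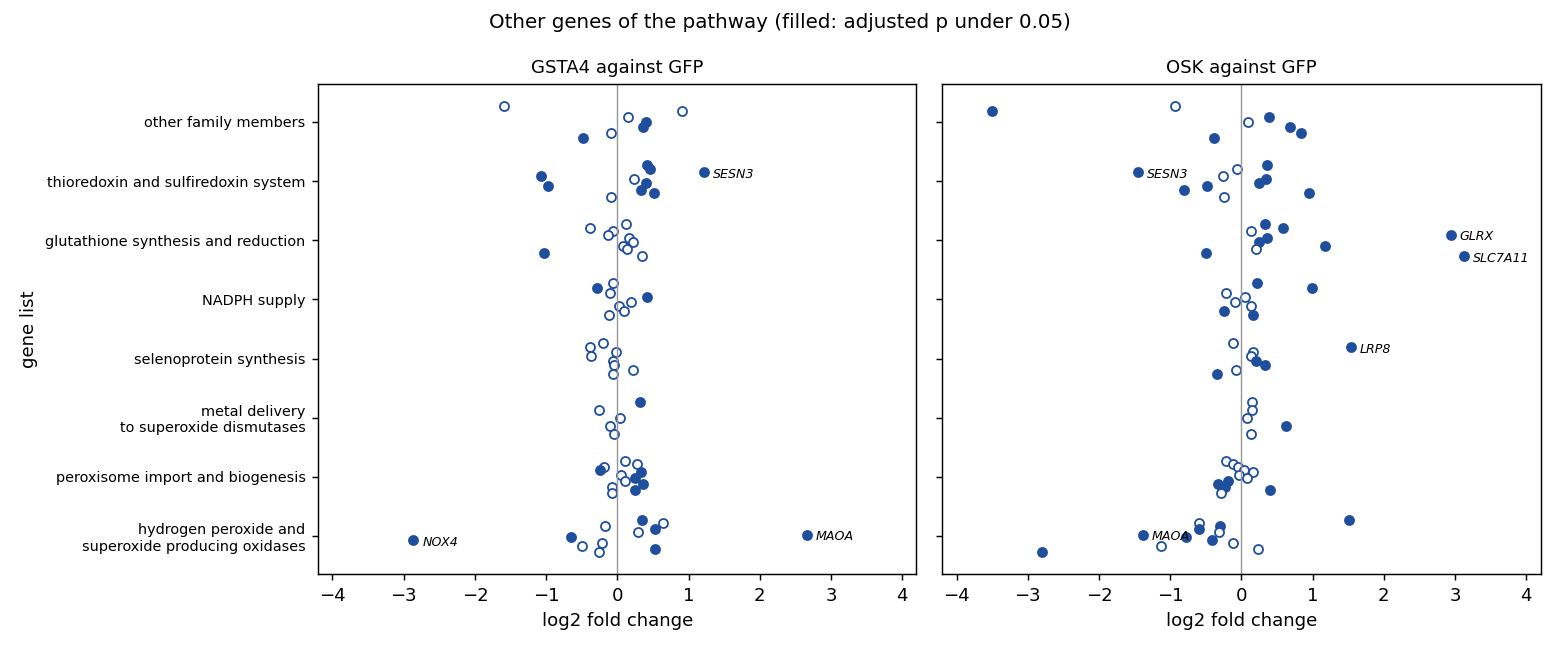
Log2 fold changes of the 72 tested genes of the 8 lists in GSTA4 against GFP and in OSK against GFP; each point is 1 gene, filled where the adjusted p was under 0.05. MAOA lies at 2.66 in GSTA4 and -1.39 in OSK, and NOX4 at -2.87 in GSTA4, while the unlabelled points farthest left in OSK are GPX7 and XDH, which had few reads.

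Between the controls, PRDX2, GCLC and SLC39A14 were among the genes lower, and TXNIP and MAOB among those higher, in GFP than in WT under every setting tried. GCLC, the catalytic subunit for the first step of glutathione synthesis, averaged 52.86 CPM in WT and 37.49 CPM in GFP (edgeR adjusted p = 0.000382). Of the genes that the naming rule picked, 6 of 12 kept their call in GSTA4 against GFP under every setting, 13 of 15 in OSK against GFP and 6 of 10 in GFP against WT. IDH1, picked in both ORF contrasts, kept its call in OSK against GFP and lost it in GSTA4 against GFP without GSTA4 replicate 3 (edgeR adjusted p = 0.106).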

How the data were processed

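The deposited table holds whole-number read counts per gene for 12 libraries, which the authors made with STAR 2.7.1a and featureCounts 1.6.2 on GRCh38, per the submitters' processing notes. The annotation release, strand setting and treatment of reads with several matches were not given in the sources used here. Lines without a symbol, 20014 of 60605, held 0.485% to 0.822% of reads and were left out. Genes were tested with edgeR 4.0.16 (limma 3.58.1, R 4.3.3) by its quasi-likelihood test: TMM scaling, the filterByExpr filter, 1 mean per group over all 12 libraries and no covariate. Two-sided p-values were adjusted over the 15179 genes of each contrast by Benjamini-Hochberg, with 0.05 as the threshold. The common biological coefficient of variation was 7.91%. A standard error (SE) is the log2 fold change over the root of F, and floors of 3 reads cover counting error only. The fit was tested on simulated data. Values from pairs of libraries of 1 group differed by more than counting noise, so none was merged. From each pathway list, up to 2 genes with the largest change past the threshold and a mean of at least 1 CPM were named per contrast. Alternatives were library-size and DESeq2 scaling, other filters, DESeq2 1.42.0, a replicate block, the 6 libraries of a contrast alone, and leaving out each library. The members and lists were chosen with earlier results of these data known. Some pathway genes that enter the counts are not reported here by name.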

Additional observations from a re-analysis of the deposited data

How the results depend on the processing

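Each of the 60 log2 differences of the members (10 genes in 6 contrasts) was recomputed under 19 alternatives. Of the 1140 values, 1094 kept their direction and side of the threshold, 10 lost the call, all of them SOD2 in OSK against GFP, 17 gained one, and 19 changed sign, all for differences that had not passed. The sign changes were these. GPX8 in GSTA4 against GFP became 0.00071 with no filter and 0.0024 with the replicate block, and ran from -0.13 to 0.13 when a library was left out. SOD3 in OSK against GSTA4 became 0.0039 with the scaling of DESeq2 and 0.0040 with DESeq2 itself, and ran from -0.16 to 0.095. Leaving out a library moved SOD3 from -0.14 to 0.031 in GSTA4 against GFP and from -0.22 to 0.045 in OSK against GFP, SOD2 from -0.18 to 0.0016 in OSK against WT, and, in GFP against WT, GPX1 from -0.052 to 0.14, GPX4 from -0.019 to 0.073 and PRDX6 from -0.017 to 0.067.

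The number of members past the threshold in GFP against WT was 3, and 5 with the replicate block, which added SOD1 (adjusted p = 0.0412) and PRDX1 (adjusted p = 0.048). In GSTA4 against WT the block added SOD1 (adjusted p = 0.0379), for 8 in place of 7, and it changed no other call of a member. The replicate numbers were not taken to pair the libraries: the 18 correlations between same-numbered libraries ran from -0.030 to 0.18, 3 of them above 0.1, and 6 of 12 libraries were closest to their own number. With GFP replicate 1 left out, the counts were 6 in GSTA4 against GFP, 8 in OSK against GFP, 3 in GFP against WT, 8 in OSK against GSTA4, 9 in GSTA4 against WT and 8 in OSK against WT. Scaling by library size alone gave SOD2 in OSK against GFP a log2 difference of 0.11 (edgeR adjusted p = 0.235) and moved the split of all genes called in that contrast from 3508 of 6962 higher to 2782 of 6949 higher. In OSK against GSTA4 it was then 3161 of 7442 higher and in OSK against WT 2880 of 6995. No scaling moved the median of all genes by more than 0.0704. With 3 libraries a group, differences of SOD3, and of GPX8 in GSTA4 against GFP, of the size of their intervals are not resolved.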

Other observations

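Promoter windows were searched for 4 short motifs on both strands. A RefSeq table for GRCh38.p14 held 35116 windows of 300 bases (250 before and 50 after a start), and 7 of the 10 members had 12 windows in it. SOD1, PRDX1 and PRDX6 had no window there, so the search says nothing about them. TGACNNNGC, the core of the antioxidant response element, was in 13.3% of all windows and in those of 0 of the 7 members. The octamer ATGCAAAT was in 1.77% of all windows. TGANTCA, the AP-1 motif loosened to allow any base at its centre, was in 7.71% of them. Both were in the windows of 0 of the 7 members. CACCC, the core of KLF sites, was in 59.9% of all windows and in 5 of the 12 windows of the members, which belong to 4 of the 7 genes, GPX3, CAT, SOD2 and SOD3. A match is a run of letters and not a site, and the absence of one speaks only of these windows.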
